A study of Mus musculus with 31 samples.

Results

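The 7 genes described here, Ccl1, Ccl3, Ccl4, Ccl5, Ccl20, Xcl1 and Cxcl10, encode chemokine ligands made by T helper 17 (Th17) cells, the CD4 T cells known for interleukin 17. They were chosen by name and are 7 of the 31053 gene symbols in each of 3 count tables. The first table compared 6 Cyp11a1 cKO with 4 Cyp11a1 WT libraries, the second 4 GR cKO with 5 GR WT libraries, and the third held 3 libraries each of cells treated for 2 days with TGF-β1 and dexamethasone (TGF-β1+Dex), TGF-β1, dexamethasone (Dex), or neither (Ctrl). In the first 2 experiments naive T cells with the transgenic myelin-specific 2D2 receptor were taken from conditional knockout (cKO) or wild-type (WT) mice, driven in culture to the homeostatic Th17 state (Th17Hom) and transferred into Rag1 KO mice, which lack T and B cells of their own. The recipients developed experimental autoimmune encephalomyelitis (EAE), a model of multiple sclerosis, and the 2D2+ cells were sorted from brain and spinal cord at its peak. Cyp11a1 encodes the enzyme that begins steroid synthesis from cholesterol, and GR is the glucocorticoid receptor, product of Nr3c1. All mice are given as C57/B6; the Cre line of the knockouts and the age of the animals are not given in the sources used here. The in vitro cells were WT Th17 cells of the inflammatory state (Th17Inf), grown from spleen and lymph node. Each library was made from 2000 sorted cells.

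Chemokines are small secreted proteins that guide leukocytes through G protein-coupled receptors. Ccl3, Ccl4 and Ccl5 draw monocytes and T cells, Ccl3 and Ccl5 in part through Ccr1, Ccl1 acts on Ccr8, Ccl20 on Ccr6, Xcl1 on Xcr1 of cross-presenting dendritic cells, and Cxcl10 on Cxcr3. In T cells most of these genes are switched on by antigen receptor signals, Cxcl10 is an interferon-induced gene, and glucocorticoids are known to restrain many chemokines in leukocytes. Myeloid cells and microglia also make Ccl3, Ccl4, Ccl5 and Cxcl10, and NK and CD8 T cells also make Xcl1, Ccl3, Ccl4 and Ccl5.

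Sequencing gave totals of 4322688 to 5118543 counts per library for Cyp11a1, 3552871 to 5623305 for GR and 2769203 to 4291149 for the cultured cells. Levels are given as CPM, counts scaled by the effective library size within each table, so levels of different experiments were not tested against each other. With 3 counts as the limit that a count of 0 allows, for counting error alone, the floor of a library was 0.520 to 0.792 CPM (Cyp11a1), 0.492 to 1.05 CPM (GR) or 0.629 to 1.13 CPM (in vitro). Cyp11a1 mRNA had 0 to 4 counts in Cyp11a1 cKO libraries and 0 in all 4 Cyp11a1 WT libraries, so that the deletion could not be checked. Nr3c1 mRNA was 8.39 ± 1.42 CPM in GR cKO (SD, n = 4) against 14.9 ± 2.36 CPM in GR WT (SD, n = 5), with an edgeR adjusted p of 0.580. Its range was 6.73 to 10.2 CPM in cKO and 12.9 to 18.7 CPM in WT, without overlap, as for 2.21% of all genes tested. The log2 change was -0.83 ± 0.18 (SE), with an edgeR unadjusted p of 0.000617, and 0% of all genes passed after adjustment. The T cell genes Cd3e, Cd4 and Trac and the Th17 gene Il17a were detected in every library. Sums over 24 myeloid markers ran from 419 to 1238 CPM for Cyp11a1, 4637 to 23341 CPM for GR and 57.4 to 87.5 CPM for cultured libraries, beside T cell marker sums of 33688 to 39482, 15908 to 21215 and 3357 to 3654 CPM. In vitro Csf1r and C1qa, which define myeloid cells, were at 0 in all 12 libraries. P2ry12 and Lyz2, which also define them, reached 2 and 1 counts at most and were at 0 in 7 and 9 of the 12. Sums over 13 NK and CD8 markers were 90.2 to 529, 59.0 to 149 and 13.2 to 34.8 CPM in the 3 experiments. Of the genes that define those cells, Cd8a reached 7 counts, Ncr1 10 counts and Eomes 6 counts at most in any CNS library. Klrb1c, which also defines them, was detected in every CNS library, at 4 to 13 counts in Cyp11a1 and 3 to 10 in GR. In bulk samples fewer cells of a type and less RNA per cell cannot be told apart.

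On average over each CNS experiment Ccl5 and Ccl1 led the family, and in culture Ccl1 was almost absent. On the scale of mean CPM per kb of transcript, which allows levels of different genes to be compared, Ccl5 stood at 681 ± 215 in the Cyp11a1 experiment (SD, n = 10), followed by Ccl1 at 518 ± 246 and Ccl4 at 114 ± 50.5. Ccl3 at 51.1 and Xcl1 at 50.3 CPM per kb did not separate, Ccl3 being the higher in 6 of 10 libraries, and Ccl20 (9.48) and Cxcl10 (5.15) came last. Ccl1 was above Ccl4 in all 10 libraries, whereas Ccl5 was above Ccl1 in 8 of 10.

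In the GR experiment the order per kb began likewise with Ccl5 at 939 ± 285 (SD, n = 9), but the spread of Ccl1, 393 ± 421, reached across its neighbours: Ccl1 exceeded Ccl4 (163 ± 41.3) in 6 of 9 libraries. In GR cKO alone the mean of Ccl1 was below that of Ccl4, at 146 and 157 CPM per kb, against 591 and 167 in GR WT. Over all 9 libraries Ccl3 had 96.3 and Cxcl10 27.3 CPM per kb. Xcl1, at 24.1, fell on either side of Cxcl10, which was the higher in 5 of 9 libraries, and Ccl20 was again low at 4.18. In vitro Ccl5 had 71.3, Ccl4 23.2 and Ccl3 8.64 CPM per kb, Ccl5 exceeding Ccl4 and Ccl4 exceeding Ccl3 in all 12 libraries. Xcl1, Ccl1, Ccl20 and Cxcl10 averaged 1.06, 0.902, 0.857 and 0.101 CPM per kb and could not be ordered.

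**Figure D1:**
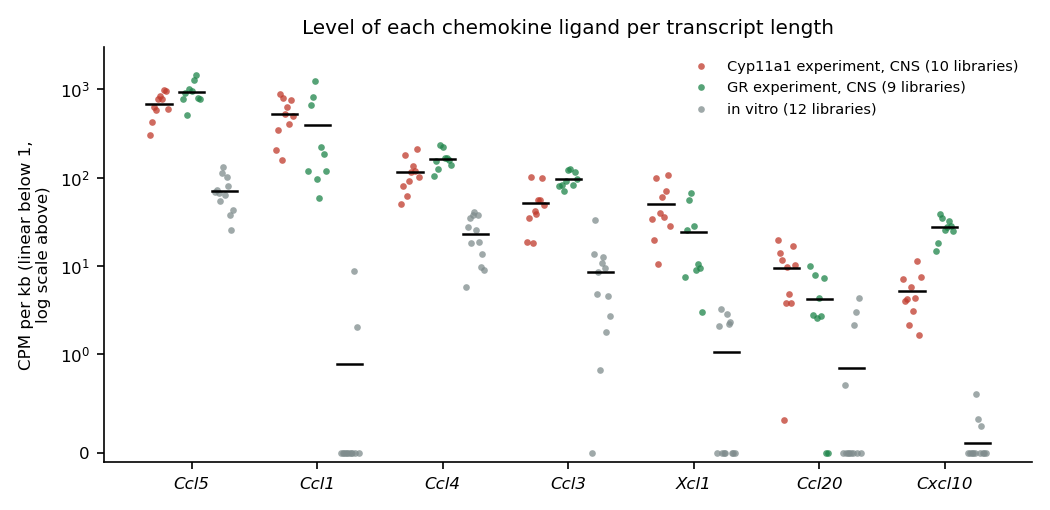
Level of each gene in CPM per kb of its principal transcript, one point per library and a line at the mean, by experiment; the axis is linear below 1 and logarithmic above. Ccl5 is highest on average in each experiment, and Ccl1, second in both CNS experiments at 518 and 393, averages 0.902 in vitro.

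The 7 genes lie on 3 chromosomes of GRCm38. Chromosome 11 carries Ccl1 (82176657 to 82179812), Ccl5 (83525778 to 83530518), Ccl3 (83647844 to 83649355) and Ccl4 (83662584 to 83664683). Ccl3 and Ccl4 are neighbours, read from opposite strands with 13228 bases between them. Chromosome 1 carries Ccl20 (83116774 to 83119167) and Xcl1 (164931644 to 164935527), and chromosome 5 carries Cxcl10 (92346638 to 92348882). The transcripts have 3 exons, or 4 for Ccl20 and Cxcl10. No 38-base window, the length of a read, was shared with another gene's transcript for Ccl1, Ccl3, Ccl4, Ccl5 and Ccl20. For Xcl1 13.0% and for Cxcl10 9.08% of windows lay also in a transcript of the opposite strand, from Gm20743 and Art3. The library method keeps no strand, so those reads cannot be told apart; Art3 itself had at most 13 counts in any library.

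The first comparison asked what deletion of Cyp11a1 changes in Th17 cells of the inflamed CNS. In edgeR 0 of the 7 genes passed the threshold of 0.05 on the adjusted p, against 0.178% of the 10125 genes tested. At an unadjusted p below 0.05 there was 1, Ccl5, and 8% of all genes; DESeq2 called Ccl5 and limma voom did not. The median log2 fold change of the 7 was 0.44, cKO over WT, and that of all genes tested 0.00. For each of the 7 genes the values of the 2 genotypes overlapped, while 1.97% of all genes had groups apart.

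Ccl5, which recruits T cells and monocytes, ran from 316 to 516 CPM in the 6 Cyp11a1 cKO libraries with a median of 426, against 163, 228, 333 and 307 CPM in the 4 Cyp11a1 WT libraries. All but 1 of the cKO values were above the highest WT value, and the lowest cKO library fell inside the WT range. Ccl5 averaged 432 ± 73.3 CPM in cKO and 258 ± 77.5 CPM in WT (SD, n = 6 and 4), a log2 fold change of 0.75 ± 0.19 (SE) with an edgeR adjusted p of 0.238. With DESeq2 the adjusted p was 0.0131.

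Ccl1, the Ccr8 ligand, ran from 206 to 412 CPM in Cyp11a1 cKO with a median of 294, against 106, 179, 448 and 81.6 CPM in WT. WT replicate 3 was above every cKO library, and the other WT libraries were below every cKO library. The log2 fold change was 0.59 ± 0.45 (SE; edgeR adjusted p = 0.821).

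The same WT library was highest of its group for Ccl5, above, and for Xcl1, Ccl3 and Ccl4. Xcl1 had 14.8 to 55.9 CPM in cKO with a median of 26.1, against 17.7, 10.2, 51.6 and 5.54 CPM in WT. Ccl3 had 29.5 to 75.5 CPM in cKO (median 40.1), against 14.3, 27.0, 76.9 and 14.0 CPM in WT. Ccl4, which like Ccl3 attracts monocytes and T cells, had 61.0 to 139 CPM in cKO (median 76.7), against 33.3, 52.7, 119 and 40.6 CPM in WT. In all 3 the WT maximum was replicate 3, and for Ccl3 and Ccl4 the other WT libraries were below the lowest cKO library. Log2 fold changes were 0.44 ± 0.59 for Xcl1, 0.36 ± 0.49 for Ccl3 and 0.45 ± 0.37 for Ccl4 (SE; edgeR adjusted p = 0.904, 0.904 and 0.827). Without WT replicate 3 the changes were 1.38 for Xcl1, 1.21 for Ccl3, 1.00 for Ccl4 and 1.32 for Ccl1. Their edgeR adjusted p-values were between 0.142 and 0.389, and again 0 of the 7 genes passed. As that library was the WT maximum for these genes, its omission raises the changes, and these values are a description. With other single libraries left out the changes went as low as 0.14 for Xcl1, 0.11 for Ccl3, 0.25 for Ccl4 and 0.33 for Ccl1.

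Ccl20, the Ccr6 ligand typical of Th17 cells, and Cxcl10 were near the lower end of detection. Ccl20 had 3.00 to 13.3 CPM in Cyp11a1 cKO (median 5.83), against 15.6, 10.997, 9.35 and 0.264 CPM in WT, the last from 1 count. Its values scattered over both groups, with a log2 fold change of -0.52 ± 0.62 (SE; edgeR adjusted p = 0.893). Cxcl10 had 1.80 to 12.6 CPM in cKO (median 5.49), against 7.80, 4.44, 4.68 and 2.38 CPM in WT (log2 fold change 0.36 ± 0.44, SE; edgeR adjusted p = 0.895).

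Marker sums differed between the same libraries. Sums over 7 Th17 markers were 185 ± 34.5 CPM in Cyp11a1 cKO, from 134 to 231, and 269 ± 39.7 CPM in WT, from 234 to 325 (SD, n = 6 and 4), so that the genotypes did not overlap, a difference that was not tested. NK and CD8 marker sums were 229 to 529 CPM in Cyp11a1 cKO, against 90.2, 93.0, 368 and 127 CPM in WT, with WT replicate 3 again the high one. The log2 difference in this sum was 1.22, higher in cKO (exact two-sided permutation p = 0.0476, 0.0952 after adjustment over 4 such tests). Without Gzma, a granzyme gene and the most abundant of these markers, the difference was 0.61 (exact permutation p = 0.0571). Between 2 and 5 of the 13 markers were at 0 in a library. Myeloid sums lay between 570 and 1238 CPM in cKO libraries, and between 419 and 599 CPM in WT libraries (log2 difference 0.73, exact p = 0.0286, adjusted 0.0952). With the NK and CD8 sum, Gzma included, as a term of the fit, log2 changes were -0.17 ± 0.35 for Ccl1, -0.51 ± 0.34 for Ccl3 and -0.22 ± 0.28 for Ccl4 (SE). For Xcl1 and Ccl5 they were -0.41 ± 0.53 and 0.43 ± 0.22 (SE). With the myeloid sum as the term the changes were 1.31 ± 0.66 for Ccl1, 0.95 ± 0.78 for Ccl3 and 0.82 ± 0.57 for Ccl4 (SE). For Xcl1 and Ccl5 they were 0.80 ± 0.99 and 0.87 ± 0.28 (SE). In both fits 0 of the 7 genes passed in edgeR. What share of the chemokine mRNA came from such cells was not tested.

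**Figure D2:**
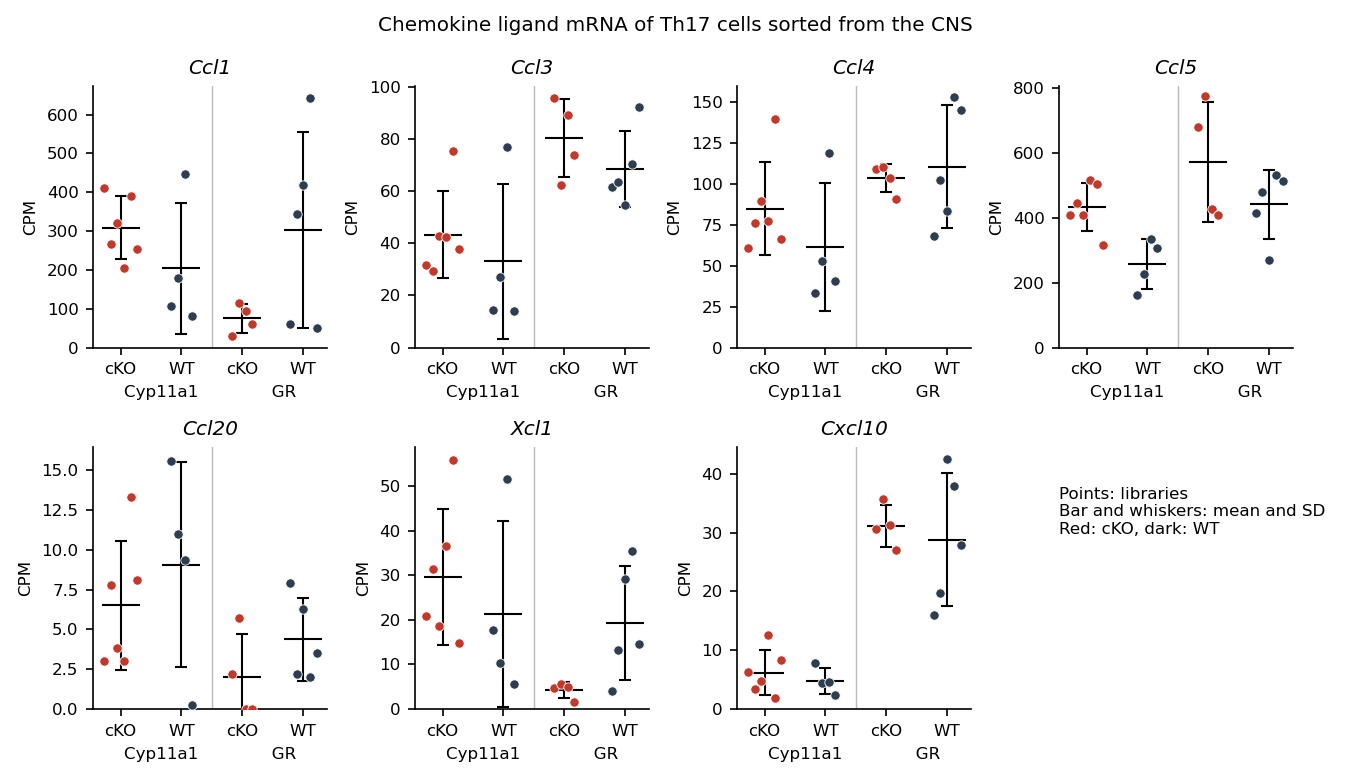
CPM of each gene in Th17 cells sorted from the CNS, one point per library, with mean and SD; each panel has Cyp11a1 cKO and WT left of the line and GR cKO and WT right of it, and its own axis from 0. Genotypes overlap for every gene; Ccl1 in GR WT falls into 3 libraries at 344 to 643 CPM and 2 at 49.2 and 61.0 CPM.

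Some of the 7 genes were correlated over the 10 Cyp11a1 libraries. Of 21 pairs, 7 had an adjusted p below 0.05 for Pearson's r on log2 CPM and 3 for Spearman's rho as well, with Benjamini-Hochberg adjustment over the 21. The smallest r of these 7 was 0.73, a value that 1.4% of all pairs among the 10125 genes tested reached or exceeded, and 0.00185% of them reached that of Ccl3 and Ccl4. Gene pairs share the libraries and are not independent. The neighbours Ccl3 and Ccl4 were closest, at r = 0.97 and rho = 0.94 (permutation adjusted p = 0.00252 and 0.00525). The relation held without the 2 libraries farthest from the median of Ccl3, at r = 0.94, and within the cKO libraries, at r = 0.91. Ccl4 and Xcl1 gave r = 0.79 and rho = 0.82 (permutation adjusted p = 0.0267 and 0.0496), 0.89 without the farthest 2 libraries and 0.74 within cKO.

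Ccl1 and Ccl3 gave r = 0.87 and rho = 0.81 (permutation adjusted p = 0.0153 and 0.0496), but 0.63 without the 2 farthest libraries and 0.28 within cKO, so that this relation did not hold to the same degree without them. Ccl20 and Cxcl10 had no pair past the threshold. Whether the 10 libraries are independent animals is not stated in the labels, and p-values throughout measure the spread between libraries. Across all 31 libraries the Ccl4 count was above the Ccl3 count in 30.

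The second comparison asked the same of the glucocorticoid receptor. In edgeR 0 of the 7 genes passed, as did 0% of the 10597 genes tested. At an unadjusted p below 0.05 there were 2 of the 7, Ccl1 and Xcl1, and 8.21% of all genes; DESeq2 and limma voom called 0 of the 7. Over all genes DESeq2 called 1 higher and 2 lower, and limma voom 0. The median log2 fold change of the 7 was -0.09, against 0.00 for all genes tested. The genotypes overlapped for each of the 7 genes; 2.21% of all genes had groups apart.

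Ccl1 had 30.6, 115, 94.0 and 60.7 CPM in GR cKO libraries, against 61.0, 344, 420, 643 and 49.2 CPM in GR WT libraries. WT replicates 2, 3 and 4 were above every cKO library, while WT replicates 1 and 5 lay inside the cKO range. The highest WT library had 13.1 times the level of the lowest, the widest ratio for this gene among the 4 CNS groups. The log2 fold change was -2.01 ± 0.73 (SE) with an edgeR adjusted p of 0.580.

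Xcl1, the ligand of Xcr1, had 4.68, 5.58, 5.00 and 1.59 CPM in GR cKO libraries, against 3.96, 13.3, 29.1, 35.4 and 14.7 CPM in GR WT libraries. Only WT replicate 1 lay inside the cKO range, and the other 4 WT libraries were above it. The log2 fold change was -2.15 ± 0.57 (SE) with an edgeR adjusted p of 0.580.

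These libraries also differed in myeloid RNA. Myeloid marker sums were 17319, 10878, 23341 and 22574 CPM in GR cKO, against 18908, 9334, 4637, 5930 and 21978 CPM in GR WT, with all 24 markers detected in each library. WT replicates 1 and 5, low in Ccl1, had sums in the range of the cKO libraries, and the other 3 WT libraries had the lowest sums of the 9. The log2 difference between genotypes in this sum was 0.81 (exact two-sided permutation p = 0.175, adjusted 0.233). NK and CD8 sums lay between 73.1 and 86.9 CPM in GR cKO, and between 59.0 and 149 CPM in GR WT (exact permutation p = 0.302), with 0 to 5 of the 13 markers at 0 in a library.

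With the myeloid sum as a term of the fit the log2 change was -0.30 for Ccl1 and -1.25 for Xcl1 (edgeR adjusted p = 1.00 and 0.972). With the NK and CD8 sum as the term it was -0.55 for Ccl1 and -1.33 for Xcl1 (edgeR adjusted p = 0.916 and 0.892). Among the myeloid-rich libraries alone, cKO replicates 1, 3 and 4 against WT replicates 1 and 5, Ccl1 had a log2 change of 0.17 and Xcl1 of -1.18 (edgeR adjusted p = 1.00 and 0.961). Without WT replicates 1 and 5 the log2 changes were -2.63 ± 0.42 for Ccl1 and -2.57 ± 0.40 for Xcl1 (SE). The 2 libraries left out are also the WT libraries lowest in Ccl1, so these values are a description and their p-values are not given. In that subset every WT library had a lower myeloid sum than every cKO library, so genotype and myeloid RNA cannot be told apart. These 2 subsets were chosen after seeing the data.

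**Figure D3:**
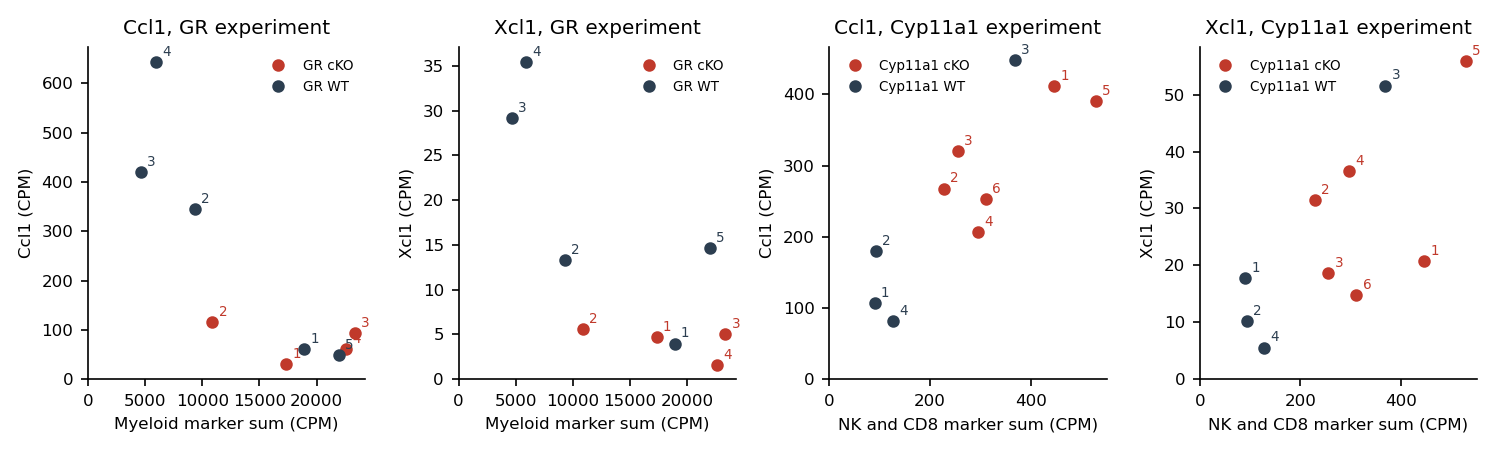
Left pair: Ccl1 and Xcl1 (CPM) against the summed CPM of 24 myeloid markers in the GR experiment; right pair: the same genes against the summed CPM of 13 NK and CD8 markers in the Cyp11a1 experiment. Points are libraries numbered by replicate; GR WT replicates 1 and 5 sit with the GR cKO libraries at high myeloid sums and low Ccl1, and Cyp11a1 WT replicate 3 sits with the cKO libraries at 368 CPM of NK and CD8 markers.

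Ccl3, Ccl4 and Ccl5 were well above the floor in every library of the GR experiment. Ccl3 had 95.8, 62.5, 89.2 and 73.9 CPM in GR cKO, against 61.7, 63.4, 54.6, 70.3 and 92.5 CPM in GR WT. Ccl4 had 109, 111, 104 and 91.1 CPM in GR cKO, against 68.4, 102, 83.4, 153 and 145 CPM in GR WT. Ccl5 had 679, 775, 426 and 407 CPM in GR cKO, against 413, 479, 270, 533 and 514 CPM in GR WT. The cKO and WT ranges overlapped in all 3, although the 2 highest Ccl5 libraries were both cKO. Log2 fold changes were 0.23 ± 0.18, -0.09 ± 0.22 and 0.37 ± 0.24 (SE; edgeR adjusted p = 0.655, 0.911 and 0.614). With the myeloid sum as a term of the fit they were 0.07 ± 0.16, -0.05 ± 0.26 and 0.39 ± 0.28 (SE), none past the threshold.

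Cxcl10, the interferon-induced ligand, had 30.6, 35.8, 31.3 and 27.0 CPM in GR cKO, against 16.0, 19.8, 42.4, 38.0 and 27.9 CPM in GR WT. The cKO libraries lay within the WT spread, with a log2 fold change of 0.12 ± 0.26 (SE; edgeR adjusted p = 0.896). With the myeloid sum as a term the Cxcl10 change was 0.52 ± 0.22, and with the NK and CD8 sum 0.42 ± 0.21 (SE), neither past the threshold. Ccl20 had 2.18, 5.74, 0 and 0 CPM in GR cKO, against 7.92, 2.22, 6.27, 2.04 and 3.49 CPM in GR WT. Counts of 0 in 2 cKO libraries and of 8 to 44 in WT gave a log2 fold change of -1.07 ± 0.84 (SE; edgeR adjusted p = 0.668). Without cKO replicate 2, the highest cKO library, it was -2.83, without cKO replicate 3 it was -0.63, and in limma voom with all libraries it was -2.86, none past the threshold.

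**Figure D4:**
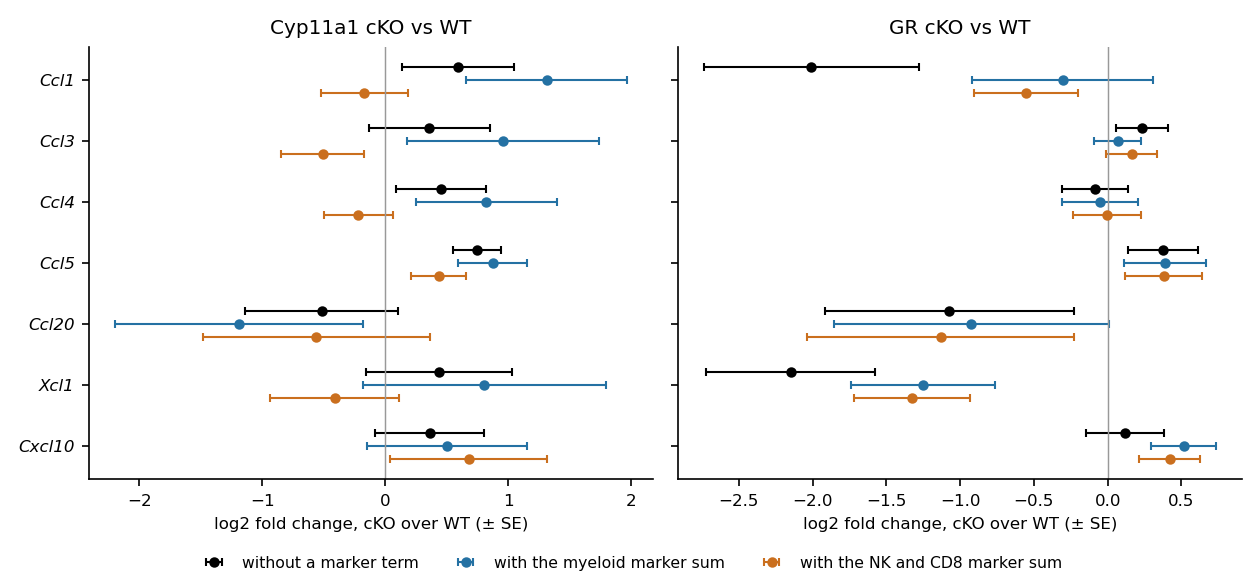
Log2 fold change of each gene, cKO over WT, with its SE, in the Cyp11a1 (left) and GR (right) experiments, for the fit without a marker term and the fits with the myeloid or the NK and CD8 marker sum as a term. In GR the change of Ccl1 is -2.01 without a term and -0.30 with the myeloid sum; in Cyp11a1 the changes of Ccl1, Ccl3, Ccl4 and Xcl1 are above 0 without a term and below 0 with the NK and CD8 sum.

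The promoters of Ccl1, Xcl1 and Ccl3 are shown because Ccl1 and Xcl1 had the 2 largest changes of the 7 genes in the GR comparison and Ccl3 did not share them. Each is the 250 bases before the RefSeq start site on GRCm38.p6, written 5′ to 3′ on the strand of the gene, with matches to the kappa-B consensus, a binding motif of NF-kappaB factors, in capitals.
Ccl1 (chr11:82179813-82180062, minus strand): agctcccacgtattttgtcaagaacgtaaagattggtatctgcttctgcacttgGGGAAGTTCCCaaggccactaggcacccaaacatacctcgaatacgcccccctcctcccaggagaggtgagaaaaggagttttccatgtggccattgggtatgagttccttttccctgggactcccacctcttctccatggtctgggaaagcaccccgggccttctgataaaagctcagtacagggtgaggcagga
Xcl1 (chr1:164935523-164935772, minus strand): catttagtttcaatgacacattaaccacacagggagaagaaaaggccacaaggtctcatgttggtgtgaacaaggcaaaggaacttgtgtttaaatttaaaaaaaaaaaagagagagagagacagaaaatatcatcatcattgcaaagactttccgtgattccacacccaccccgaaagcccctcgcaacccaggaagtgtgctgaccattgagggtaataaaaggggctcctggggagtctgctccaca
Ccl3 (chr11:83649379-83649628, minus strand): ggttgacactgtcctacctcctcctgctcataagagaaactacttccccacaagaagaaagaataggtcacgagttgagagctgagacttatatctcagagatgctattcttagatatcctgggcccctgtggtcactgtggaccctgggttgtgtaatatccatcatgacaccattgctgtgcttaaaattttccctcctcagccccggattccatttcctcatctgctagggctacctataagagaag

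RefSeq's promoter table matched 5 of the 7 genes, Ccl1, Ccl3, Ccl20, Xcl1 and Cxcl10; Ccl4 and Ccl5 are named only. Both strands were searched over the 250 bases before to 50 after each start. In Ccl1 a kappa-B match began 196 bases before the start on the strand of the gene, and a match on the other strand overlapped it. Ccl20 had 1 match, 80 bases before the start, Cxcl10 had 1 at 159 bases and a group of 3 overlapping matches from 104 bases before the start, and neither Xcl1 nor Ccl3 had any. A kappa-B match stood in 8.46% of the 32851 promoters of the table. The AP-1 motif TGANTCA occurred in Cxcl10 among the 5 and in 7.81% of all promoters. The palindromic consensus of the glucocorticoid response element was in none of the 5 windows (0.00913% of all), and the hexamer AGAACA, which forms one arm of it, in that of Ccl20 alone (19% of all). A match describes letters in these windows and not binding.

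The third experiment asked how TGF-β1 and dexamethasone, alone and together, act on inflammatory Th17 cells. Ccl3, Ccl4 and Ccl5 had enough counts to be tested, and all 3 were lowest on average in cells given both agents. For Ccl3 the mean was 2.31 CPM with both and 3.62 CPM with Dex, with overlapping libraries. The call that passed was Ccl5 in TGF-β1+Dex against Dex. The 4 groups share libraries between comparisons, which are therefore not independent of each other.

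Ccl5 had 20.3, 13.6 and 22.6 CPM with TGF-β1+Dex, 33.5, 53.6 and 43.1 CPM with TGF-β1, 28.9, 60.0 and 69.6 CPM with Dex, and 36.2, 38.5 and 35.4 CPM in Ctrl. The 3 TGF-β1+Dex libraries were below all 9 others, which overlapped among themselves. Against Dex, Ccl5 fell to 18.8 ± 4.70 CPM with TGF-β1+Dex, against 52.8 ± 21.3 CPM with Dex (SD, n = 3 each), a log2 fold change of -1.46 ± 0.29 (SE; edgeR adjusted p = 0.0190). It was 1 of the 3 genes tested, while 2.62% of 10332 genes passed in that comparison, and 1.16% passed as lower. At an unadjusted p below 0.05 there were 2 of the 3, Ccl4 and Ccl5, and 13% of all genes. DESeq2 also called it (adjusted p = 4.33e-05). Without Dex replicate 2 or 3, or TGF-β1+Dex replicate 1 or 2, its edgeR adjusted p was between 0.0655 and 0.0824, and in limma voom it was 0.0543.

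Against TGF-β1 alone the log2 change of Ccl5 in TGF-β1+Dex was -1.19 ± 0.30 (SE; edgeR adjusted p = 0.126), and against Ctrl it was -0.94 ± 0.30 (SE; edgeR adjusted p = 0.0931). With DESeq2 these had adjusted p-values of 0.00790 and 0.0249. Dex alone against Ctrl gave 0.52 ± 0.27 and TGF-β1 alone against Ctrl 0.25 ± 0.28 (SE; edgeR adjusted p = 0.443 and 0.744), and TGF-β1 against Dex -0.27 ± 0.27 (SE; edgeR adjusted p = 0.707). The interaction of Dex and TGF-β1, the departure of the combination from the sum of the single log2 effects, was -1.71 ± 0.40 (SE) with an edgeR adjusted p of 0.740, and 0.0322 with DESeq2.

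Ccl4 had 6.44, 9.06 and 5.87 CPM with TGF-β1+Dex, 16.9, 25.0 and 12.4 CPM with TGF-β1, 12.0, 24.8 and 26.9 CPM with Dex, and 3.83, 18.2 and 22.8 CPM in Ctrl. The TGF-β1+Dex libraries were below all TGF-β1 and all Dex libraries, and Ctrl replicate 1 was lower still. Log2 changes of TGF-β1+Dex were -1.60 ± 0.52 against Dex, -1.38 ± 0.53 against TGF-β1 and -1.14 ± 0.53 against Ctrl (SE; edgeR adjusted p = 0.164, 0.396 and 0.271). Without Ctrl replicate 1 the change against Ctrl was -1.54 with an edgeR adjusted p of 0.0415, and without Ctrl replicate 3 it was -0.70 with an edgeR adjusted p of 0.618. Replicate 1 was the lowest and replicate 3 the highest Ctrl library, so omitting either shifts the change, and these values are a description. The single agents gave 0.46 ± 0.46 for Dex and 0.24 ± 0.47 for TGF-β1 against Ctrl (SE; edgeR adjusted p = 0.752 and 0.874), and TGF-β1 against Dex gave -0.22 ± 0.46 (SE; edgeR adjusted p = 0.887). The interaction was -1.83 ± 0.70 (SE; edgeR adjusted p = 0.860).

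Ccl3 had 1.35, 3.48 and 2.10 CPM with TGF-β1+Dex, 8.28, 9.79 and 7.23 CPM with TGF-β1, 3.69, 6.54 and 0.647 CPM with Dex, and 0, 10.6 and 25.7 CPM in Ctrl. The Ctrl libraries spanned the whole range of the experiment, so comparisons with Ctrl were imprecise. TGF-β1+Dex was below TGF-β1 in every library, and TGF-β1 above Dex in every library. Log2 changes were -1.87 ± 1.02 for TGF-β1+Dex against TGF-β1, -2.45 ± 0.96 against Ctrl and -0.71 ± 1.13 against Dex (SE; edgeR adjusted p = 0.626, 0.190 and 0.877). Without Ctrl replicate 1, where no read was counted, the change against Ctrl was -2.97 with an edgeR adjusted p of 0.0112, and without Ctrl replicate 3, the highest library, it was -1.28 with an edgeR adjusted p of 0.592. As these are the lowest and the highest Ctrl library, omitting either shifts the change, and these values are a description. Dex alone gave -1.75 ± 0.89 and TGF-β1 alone -0.58 ± 0.80 against Ctrl (SE; edgeR adjusted p = 0.441 and 0.806). TGF-β1 against Dex gave 1.17 ± 0.94 (SE; edgeR adjusted p = 0.630), and the interaction was -0.13 ± 1.34 (SE; edgeR adjusted p = 1.00).

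Counted over the 3 genes tested, edgeR called 0 in TGF-β1+Dex against Ctrl, 0 in TGF-β1+Dex against TGF-β1, 0 in TGF-β1 against Dex, 0 in TGF-β1 against Ctrl and 0 in Dex against Ctrl, where 6.25%, 0.532%, 4.83%, 3.29% and 1.83% of all genes passed. In the interaction 0 of 3 passed, as did 0% of all genes; DESeq2 called 4 of all genes higher and 2 lower, and limma voom 0. At an unadjusted p below 0.05 there were 2 of the 3 in each of the first 2 comparisons and in the interaction, against 18.8%, 9.85% and 5.34% of all genes. There were 0 in TGF-β1 against Dex, TGF-β1 against Ctrl and Dex against Ctrl, against 16.2%, 15% and 13.2% of all genes. DESeq2 called 1 gene, Ccl5, in each of these first 2 and the interaction, and limma voom 0 in all 6. Groups did not overlap for 3 of the 3 genes in TGF-β1+Dex against TGF-β1, for 2 against Dex and for 1 against Ctrl, each time lower with both agents. Among all genes 8.05%, 8.94% and 11.9% had groups apart in that direction. In TGF-β1 against Dex 1 of the 3 had groups apart, higher with TGF-β1, as did 10.9% of all genes.

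**Figure D5:**
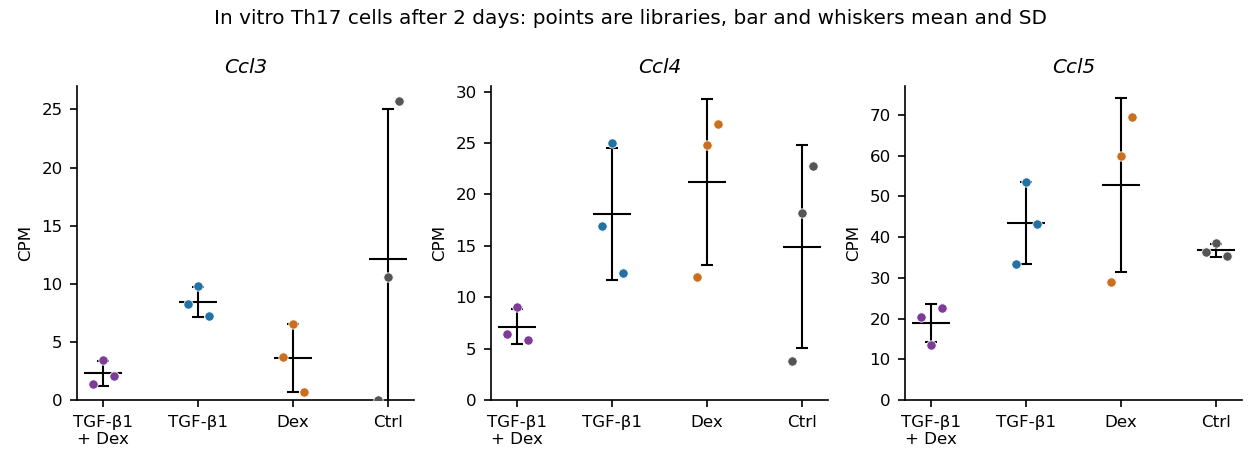
CPM of Ccl3, Ccl4 and Ccl5 in Th17 cells after 2 days in culture with TGF-β1+Dex, TGF-β1, Dex or neither (Ctrl); points are libraries, with mean and SD, and whiskers end at 0. The 3 TGF-β1+Dex libraries, at 13.6 to 22.6 CPM of Ccl5, are below all others for that gene, and Ccl3 in Ctrl spans 0 to 25.7 CPM.

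The other 4 genes had too few counts in vitro for a test. Ccl1 had 15 counts in TGF-β1 replicate 3, 3 in TGF-β1+Dex replicate 2 and 0 in the other 10 libraries. Ccl20 had 10 counts in 1 TGF-β1+Dex library, 6 and 8 in 2 TGF-β1 libraries, 2 in 1 Ctrl library and 0 in the other 8. Xcl1 had 4 counts in each TGF-β1 library, 4 and 7 in 2 Ctrl libraries and 0 in the third, and 0 in all TGF-β1+Dex and Dex libraries. Cxcl10 never exceeded 2 counts. Levels of these genes under about 1 CPM were not detectable at this depth.

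The genes whose pattern over the 12 in vitro libraries came closest to Ccl4, by root-mean-square difference in centred log2 CPM, were Gbp4 (0.59), an interferon-induced GTPase gene, and Zfp809 (0.62). The same measure over Ccl4 itself, its distance from a flat line, was 0.85. For Ccl5 they were Tm2d1 (0.42) and Nup43 (0.44), against 0.63 for a flat line, and for Ccl3 they were Ccl4 (1.13) and Pcsk7 (1.14), against 1.46. These came from 5030 genes compared and are descriptions with no test.

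The receptors of these ligands were listed as 8 genes, of which 5 were tested in each CNS experiment and 4 in vitro. Ccr6, the receptor of Ccl20, rose to 89.4 ± 8.35 CPM with TGF-β1+Dex, 56.4 ± 9.20 CPM with TGF-β1 and 20.2 ± 6.29 CPM with Dex, against 9.01 ± 1.81 CPM in Ctrl (SD, n = 3 each). These were log2 changes of 3.32 ± 0.22, 2.65 ± 0.22 and 1.16 ± 0.24 (SE; edgeR adjusted p = 1.38e-06, 1.81e-05 and 0.0315). Limma voom did not call the change with Dex. Ccr8, the receptor of Ccl1, fell to 51.5 ± 4.75 CPM with TGF-β1+Dex, 81.1 ± 5.92 CPM with TGF-β1 and 87.9 ± 8.76 CPM with Dex, against 143 ± 26.4 CPM in Ctrl (SD, n = 3 each), by 1.46, 0.81 and 0.70 on the log2 scale (edgeR adjusted p = 2.10e-05, 0.00315 and 0.0139). Their ligands Ccl20 and Ccl1 had 0 to 15 counts in the same libraries. Cxcr3, the receptor of Cxcl10, did not pass in any comparison. Among all genes 6.25% passed with TGF-β1+Dex, 3.29% with TGF-β1 and 1.83% with Dex, each against Ctrl.

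In the CNS experiments 0 of 5 receptors passed in edgeR, DESeq2 or limma voom. Ccr6 had an unadjusted p below 0.05 in Cyp11a1, at 31.1 ± 16.4 CPM in cKO and 67.5 ± 12.7 CPM in WT (SD, n = 6 and 4; edgeR adjusted p = 0.406). In the GR experiment Cxcr3 had one, at 40.6 ± 7.57 CPM in cKO and 26.004 ± 1.84 CPM in WT (SD, n = 4 and 5; edgeR adjusted p = 0.580). Ccr8 was at 155 ± 26.9 CPM in Cyp11a1 cKO and 160 ± 19.1 CPM in WT, and at 110 ± 2.44 CPM in GR cKO and 114 ± 8.16 CPM in WT.

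Of 31 other chemokine ligand genes listed, 30 were in the tables, and 7, 16 and 4 were tested in the Cyp11a1, GR and in vitro fits. None passed in the CNS experiments by edgeR, DESeq2 or limma voom, with 3 and 4 at an unadjusted edgeR p below 0.05. Among all genes 8% and 8.21% were below that limit. The 5 highest on average were Ccl12, Ccl6, Cxcl16, Ccl22 and Ccl2 in the Cyp11a1 libraries, from 16.2 CPM of Ccl12 in cKO, against 10.7 CPM in WT, downwards. In the GR libraries, which held more myeloid RNA, they were Ccl12, Cxcl16, Ccl2, Ccl8 and Ccl6, with Ccl12, a monocyte chemokine, at 165 ± 45.5 CPM in cKO and 118 ± 30.9 CPM in WT (SD, n = 4 and 5; edgeR adjusted p = 0.580). In vitro they were Ccl27a, Ccl25, Ccl22, Cxcl3 and Cxcl16. There Cxcl3, a neutrophil attractant, rose to 9.66 ± 5.24 CPM with Dex, against 1.03 ± 0.947 CPM in Ctrl (SD, n = 3 each; edgeR adjusted p = 0.0386), though DESeq2 did not call it. Ccl22, a Ccr4 ligand, was higher with TGF-β1, at 9.87 ± 3.13 CPM, than with Dex, at 1.15 ± 1.25 CPM (SD, n = 3 each; edgeR adjusted p = 0.00481). In Ctrl it was 4.91 ± 2.52 CPM (SD, n = 3). Against Ctrl its log2 change was 1.02 with TGF-β1 and -2.08 with Dex (edgeR adjusted p = 0.277 and 0.107).

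Cytokines that activated T cells make beside chemokines were listed as 12 genes, 9 of them tested in vitro. With Dex 5 of the 9 fell against Ctrl and 0 rose: Il3 and Il2, by 2.37 and 2.23 on the log2 scale, Tnf, Tnfsf8 and Lta. Among all genes tested 1.83% passed in that comparison. The median log2 fold change of the 9 was -0.71, against 0.00 for all genes tested. With TGF-β1, Il17f and Lta rose, by log2 fold changes of 2.25 and 1.53, and Il3 and Tnfsf8 fell. With TGF-β1+Dex against Ctrl, Il17f and Lta rose, and Il3, Il2 and Tnfsf8 fell. Of all genes 3.29% passed with TGF-β1 and 6.25% with TGF-β1+Dex, each against Ctrl. TGF-β1+Dex against TGF-β1 lowered 2 (Tnfsf8 and Lta), and TGF-β1+Dex against Dex raised Lta and lowered Il3 and Tnfsf8. Lta, Il2 and Tnf were higher with TGF-β1 than with Dex. Of all genes 0.532%, 2.62% and 4.83% passed in these 3 comparisons. Il2 was 19.1 ± 5.80 CPM with Dex and 65.0 ± 25.9 CPM with TGF-β1, against 89.9 ± 20.8 CPM in Ctrl (SD, n = 3 each). Ccl3, Ccl4 and Ccl5 did not pass with Dex alone, at log2 changes of -1.75 ± 0.89, 0.46 ± 0.46 and 0.52 ± 0.27 (SE). Whether Dex acted differently on these chemokines and on the cytokines was not tested.

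Signals and factors known to act upstream of chemokine genes were listed as 31 genes, 30 of them tested in vitro. Tsc22d3, which encodes GILZ and is a classical glucocorticoid target, was the 1 gene of the list that passed with Dex, at 115 ± 5.17 CPM against 47.1 ± 2.49 CPM in Ctrl (SD, n = 3 each; edgeR adjusted p = 9.52e-05). With TGF-β1, 9 rose and 1 fell against Ctrl, and with DESeq2 5 and 1. Of all genes edgeR called 1.83% with Dex, 3.29% with TGF-β1 and 6.25% with TGF-β1+Dex, each against Ctrl, and 4.83% in TGF-β1 against Dex. Those of largest change were Rora, Tgfbr1, Jun, Smad3, Dusp1, Nfkb2 and Relb, which rose, from a log2 fold change of 1.21 for Rora to 0.43 for the NF-kappaB subunit gene Relb, and Batf, an AP-1 factor, which fell by 0.77 on the log2 scale. With TGF-β1+Dex against Ctrl, Tsc22d3, Rora, Jun, Dusp1, Stat3 and Irf4 rose, and Batf and Rel, another NF-kappaB gene, fell by 0.99 and 0.74 on the log2 scale. TGF-β1+Dex against Dex raised Jun, Rora, Nfkb2, Stat3 and Irf4 and lowered Batf, and against TGF-β1 it raised Tsc22d3 alone. Of all genes 2.62% passed in TGF-β1+Dex against Dex and 0.532% against TGF-β1. Between TGF-β1 and Dex, 10 were higher and 2 lower with TGF-β1, among them Jun, Tgfbr1, Rora, Smad3, Nfkb2 and Stat3, higher, and Tsc22d3, lower. Of interferon-inducible genes, Isg15 and Gbp4 fell in TGF-β1+Dex against Ctrl, 2 of the 5 tested, and Gbp4 fell against Dex. In the CNS comparisons edgeR, DESeq2 and limma voom called 0 genes of these 3 lists, with 0 to 4 of a list at an unadjusted edgeR p below 0.05. Among all genes 8% in Cyp11a1 and 8.21% in GR were below that limit. The lists were drawn up with results of these data known.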

How the data were processed

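Polyadenylated RNA was sequenced as paired reads of 38 bases after a modified SMART-Seq2 and Nextera XT preparation, per the labels' protocols, which does not keep strand. The authors deposited 3 tables of counts per gene, without normalisation; RSEM 1.3.3 and mm10 are named in the submitters' processing notes, and other settings are not given in the sources used here. All columns matched a library (0 left over).

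From these counts edgeR 4.0.16, under R 4.3.3, gave all main tests: filterByExpr, TMM scaling, robust quasi-likelihood F tests per table, Benjamini-Hochberg adjustment over all genes tested and a threshold of 0.05. One fit covered the 4 in vitro groups. CPM is the count over library total times TMM factor; the SE is the log2 fold change over the square root of F. Levels per kb use the principal transcript of GENCODE M21 (GRCm38, the build mm10). Marker sums were compared by exact permutation, correlations by 100000 permutations. Fits were tested on simulated counts.

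The 7 genes, the gene and marker lists and the tests were chosen with earlier results of these data known. List genes were named where past the threshold (at most 8 per list and comparison), and for other ligands also the 5 of highest mean. The text names these by list and gives values for some. Some genes of the lists count in the totals but are not reported here. Alternatives were RLE scaling, no filter or a mean count of 50, DESeq2 1.42.0, limma 3.58.1 voom with sample weights, a replicate block, marker sums as terms, the compared groups alone, fits without repeat-like genes, and each library left out in turn. Replicates differed by more than counting error, and none was counted as a repeat of another.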

Additional observations from a re-analysis of the deposited data

Results flagged for a closer look

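In the 6 Cyp11a1 cKO libraries, replicate 5 stood apart from the others in 2 of the 7 genes. Its Ccl3 level was 75.5 CPM, with a gap to the next library of 0.714 of the whole range of the group. Its Ccl4 level was 139 CPM, with a gap of 0.636 of the range. The same library had the highest Xcl1 level of its group, 55.9 CPM, and the highest NK and CD8 marker sum, 529 CPM.

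In the 4 Cyp11a1 WT libraries, replicate 3 stood apart in the NK and CD8 marker sum, at 368 CPM, with a gap of 0.867 of the range. It was also the highest WT library for Ccl1, Ccl3, Ccl4, Ccl5 and Xcl1. Of 36 such checks 3 were past the limit, and chance passes about 1 in 20 of independent checks. These checks share libraries, and Ccl3 and Ccl4 were correlated at r = 0.91 within Cyp11a1 cKO. The count of 3 can therefore not be set against that rate.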

How the results depend on the processing

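Of 295 values of single genes under settings other than leaving out a library, 276 kept direction and side of the threshold, and of 276 values with 1 library left out, 259 did. With DESeq2 the number of the 7 genes past the threshold was 1 in Cyp11a1, in TGF-β1+Dex against Ctrl, in TGF-β1+Dex against TGF-β1 and in the interaction, each time Ccl5, and with the compared groups alone it was 1 in TGF-β1+Dex against Ctrl. In TGF-β1+Dex against Dex it was 0 with no low-count filter (Ccl5 adjusted p = 0.108) and with limma voom; with the compared groups alone Ccl4 passed (adjusted p = 0.0466) and Ccl5 did not (0.0961). It was 2 in GR without WT replicates 1 and 5, chosen after seeing the data and the lowest WT libraries in Ccl1. There 256 of all genes were higher and 393 lower. In that subset genotype and myeloid RNA cannot be told apart, so these counts are a description. With 1 library left out the number of the 7 genes past the threshold ranged from 0 to 2 in TGF-β1+Dex against Ctrl and from 0 to 1 against Dex. The 2 came without Ctrl replicate 1, the lowest Ctrl library for both genes that passed, Ccl3 and Ccl4.

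Of other lists, limma voom called 1 interferon-inducible gene in place of 2 lower in TGF-β1+Dex against Ctrl, and for cytokines in TGF-β1+Dex against Dex 1 in place of 2 lower, where DESeq2 called 2 in place of 1 higher.

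Of the values that turned sign, none was past the threshold in either setting. With the NK and CD8 sum as a term in Cyp11a1 they were Ccl1 (-0.17), Ccl3 (-0.51), Ccl4 (-0.22) and Xcl1 (-0.41). In GR they were Ccl1 among the myeloid-rich libraries alone (0.17) and Cxcl10 without WT replicates 1 and 5 (-0.094), and in limma voom Ccl3 in TGF-β1 against Ctrl (0.49). With 1 library left out, log2 changes ranged from -0.22 to 0.059 for Ccl4 and from -0.038 to 0.31 for Cxcl10 in GR, from -1.10 to 0.59 for Ccl3 and from -0.17 to 0.67 for Ccl4 in TGF-β1 against Ctrl, from -1.17 to 0.056 for Ccl3 in TGF-β1+Dex against Dex, and from -1.28 to 0.63 for the interaction of Ccl3. Ccl20 ranged from -0.88 to -0.15 in Cyp11a1 and from -2.83 to -0.63 in GR. The marker sums of Cyp11a1 ranged from 0.61 to 0.84 (myeloid) and from 1.01 to 1.69 (NK and CD8), and the second was 0.61 without its most abundant marker. The cause was not tested. Over all genes Cyp11a1 had 14 higher and 4 lower calls, 47 and 16 with DESeq2, 26 and 7 with no low-count filter, 5 and 1 with limma voom and 4 and 0 with the NK and CD8 sum as a term; TGF-β1+Dex against TGF-β1 had 32 and 23, and 51 and 43 with DESeq2 and 16 and 6 with the compared groups alone.

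Deviations of same-numbered libraries correlated at -0.139 to -0.0425 in Cyp11a1, -0.238 to 0.125 in GR and -0.0188 to 0.0732 in vitro. Libraries of different numbers gave -0.148 to 0.147, -0.450 to 0.349 and -0.0715 to 0.0326. In vitro the median was 0.0275 for the same number and -0.0145 for different numbers. Whether replicate numbers pair the libraries was not tested. With a replicate block the count of the 7 genes past the threshold was as without it in every comparison, Ccl5 in TGF-β1+Dex against Dex had an adjusted p of 0.0156, and Ccl4 in GR turned to 0.089. Over all genes the block left 1 higher and 0 lower in Cyp11a1. Depth limits Ccl1, Ccl20, Xcl1 and Cxcl10 in vitro and Ccl20 in the CNS.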
